A study of Mus musculus with 6 samples.

Results

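The genes described here are the nuclear-encoded subunits of the oxidative phosphorylation system, together with cytochrome c. They were taken by gene name from the protein-coding genes of the deposited table, using the Nduf, Uqcr, Cox4 to Cox8 and Atp5 name families and the genes Cyc1 and Cycs. The table held 32285 genes, of which 85 matched, 1 with a pseudogene name (Cox5b-ps) was dropped, and 84 remained. They comprised 39 genes of complex I, 9 of complex III, 18 of complex IV, 17 of complex V and the cytochrome c gene Cycs. No expression value was used to choose them.

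Libraries were compared between GSK cultures, exposed to the lactate dehydrogenase inhibitor GSK2837808A, and DMSO cultures, which received the solvent. All 6 libraries came from wild-type mouse neocortex at E10.5, dissociated and plated at 100000 cells per well, with the compound added about 2 h after plating. After about 24 h some 1000 living cells bearing CD133, the surface protein made by Prom1, were sorted for each sample as radial glial progenitors, the dividing stem cells of the early cortex. There were 3 libraries per group, and the dose is labelled as 100 mM, a value too high to be plausible in medium and not checked here. The labels give no mouse strain and do not say whether replicates were separate cultures or litters, so p-values measure a spread between samples that may be technical.

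Oxidative phosphorylation takes place in the inner mitochondrial membrane. Complexes I, III and IV pass electrons from NADH to oxygen, with cytochrome c as the mobile carrier between complexes III and IV, and pump protons out of the matrix. Complex V, the ATP synthase, lets the protons back and makes ATP. Each of these complexes is built from subunits encoded in the nucleus and a few encoded in mitochondrial DNA. Lactate dehydrogenase interconverts pyruvate and lactate and oxidises or forms NADH as it does so, and proliferating progenitors of the early cortex are known for high glycolysis.

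The libraries held 7187089 to 10224348 reads, recovered as whole reads from the normalised values. Levels below are the authors' normalised read counts, in which 1 read was worth 0.859 to 1.14 units. GSK replicate 1 stood apart for these genes. Set against the mean of the DMSO libraries on the log2 scale, the members' median was -0.39 in GSK replicate 1, 0.03 in GSK replicate 2 and 0.13 in GSK replicate 3, while the median of all tested genes was -0.01, 0.03 and 0.03. GSK replicate 1 was the lowest of the 3 GSK libraries for 75 of 76 tested members, against 45.7% of all tested genes. Most of these transcripts are short, with a median length of 738 bases for the members and 2735 bases for all tested genes. Tested genes under 1000 bases had a median of -0.08 in GSK replicate 1, 0.12 in GSK replicate 2 and 0.18 in GSK replicate 3. The part of transcript length in the position of this library was not tested.

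Cell type markers also differed between the groups. At the threshold given below, 17.0% of all tested genes were higher and 19.1% lower in GSK libraries. Of 11 radial glial markers 8 were lower in GSK libraries and 3 did not pass. The sort marker Prom1 was lower, at 591 ± 96.3 normalised reads in GSK libraries and 1183 ± 72.2 in DMSO libraries (limma adjusted p = 7.6e-06). The summed level of the 11 ran from 12143 to 15034 in GSK libraries and from 21556 to 22619 in DMSO libraries. Its largest part was Vim, which did not pass and averaged 9486 in GSK libraries and 10127 in DMSO libraries. All 6 tested erythroid markers, globins among them, were higher in GSK libraries. Without GSK replicate 1, 3 of 6 were still past the threshold, and 2 of 6 without GSK replicate 3 (20.4% and 14.1% of all tested genes). The summed erythroid level ran from 180256 to 268702 in GSK libraries and from 2326 to 20109 in DMSO libraries. Among 8 neuronal markers 4 were higher and Neurod6 was lower, with sums from 20219.8 to 24947 in GSK libraries and from 6810.0 to 13929.5 in DMSO libraries. Of 5 intermediate progenitor markers 4 were higher, and none of 5 heart and muscle markers reached the level needed for the test. Among 8 macrophage markers 5 were higher, with sums from 506 to 1088 in GSK libraries and from 69.6 to 310.4 in DMSO libraries. Of 6 mesenchyme markers 1 was lower and 5 did not pass. Their sums ran from 10239.5 to 13787 in GSK libraries and from 12608 to 16757 in DMSO libraries. Of 5 endothelial markers 2 were tested and none passed. No gene of the radial glial, erythroid, neuronal and macrophage lists was at 0 in all libraries. The part of such cells in the values below was not tested, and in bulk RNA fewer cells of a type and less RNA per cell cannot be told apart.

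Most nuclear-encoded subunit genes had small fold changes and did not pass the test for a difference. Of the 84 genes 76 had a mean of at least 10 normalised reads over all libraries and were tested. At an adjusted p below 0.05 (limma over all 15073 tested genes, Benjamini-Hochberg), 5 rose in GSK libraries, 4 fell and 67 did not pass. The 5 that rose were Cox6b2, Cox7a2l, Ndufa6, Uqcrh and Uqcrc2, and the 4 that fell were Cycs, Atp5g1, Cox5a and Cyc1. The 5 are 6.58% of the tested members, against 17.0% of all tested genes that were higher, and the 4 are 5.26%, against 19.1% that were lower. Both shares of members were below the background. The median log2 fold change was -0.07 for members and 0.01 for all tested genes, with 28 members positive and 48 negative. For 74 of 76 members the log2 fold change lay within 0.58 of 0, as it did for 68.8% of all tested genes. Standard errors of the members ran from 0.13 to 0.21 on that scale. The groups did not overlap for 12 tested members, 4 of them higher and 8 lower in GSK libraries, which is a smaller share than the 22.8% higher and 24.4% lower of all tested genes. Without GSK replicate 1 the counts were 12 higher and 4 lower (20.4% and 21.4% of all tested genes), and without GSK replicate 3 they were 3 higher and 12 lower (14.1% and 17.8%). On recovered reads edgeR called 5 members higher and 8 lower (16.8% and 19.9% of all tested genes), and DESeq2 called 5 and 6 (15.9% and 18.1%). With equal library totals 4 were higher and 10 lower (13.6% and 21.6%), and with libraries centred on the members 5 were higher and 3 lower (11.4% and 10.6%).

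**Figure D1:**
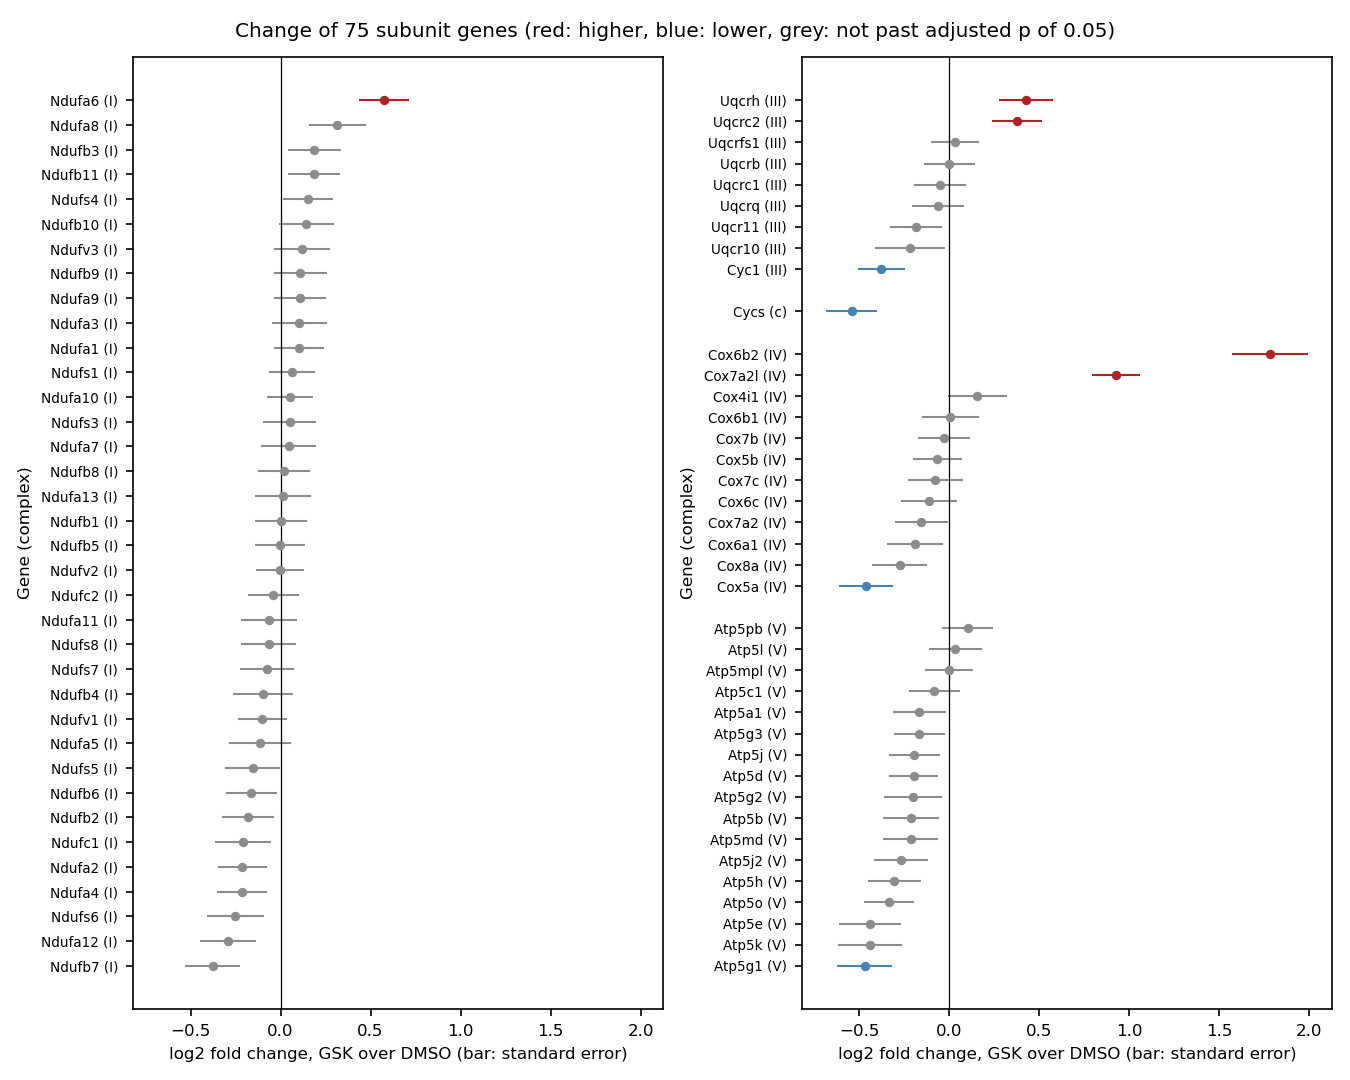
Each point is the log2 fold change of 1 subunit gene, GSK over DMSO, with its standard error as a bar, for 75 of the 76 tested genes, complex I at the left and complexes III, cytochrome c, IV and V at the right. Cox6b2 at 1.78 and Cox7a2l at 0.93 stand to the right of all others, and most points of complex V lie left of 0.

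**Figure D2:**
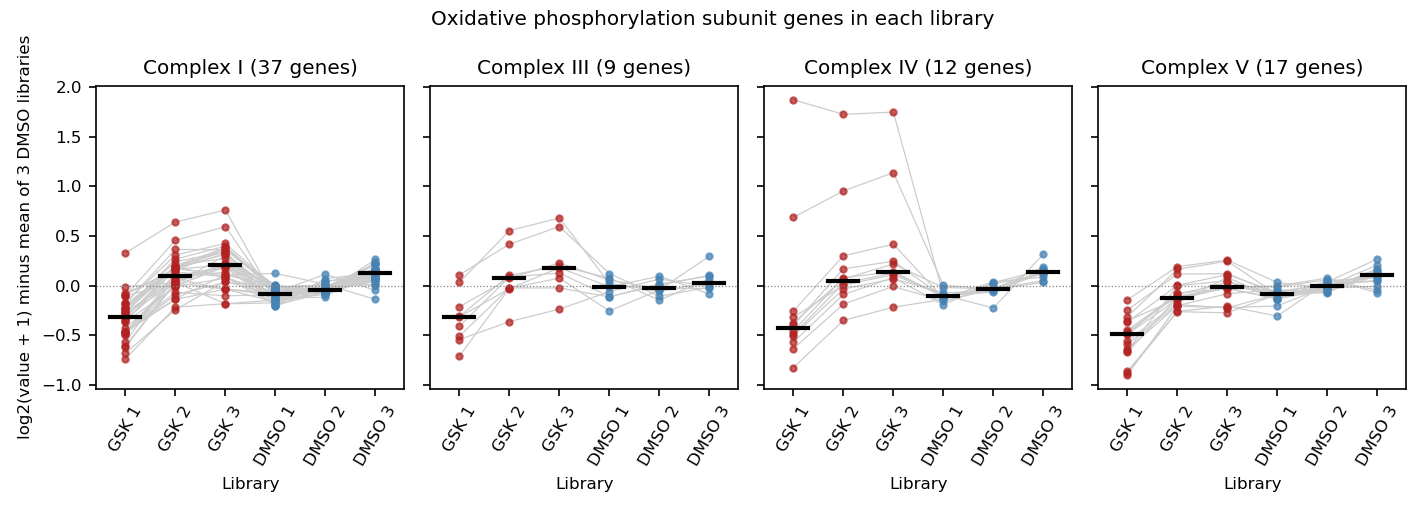
Each point is 1 tested gene in 1 library, as log2(value + 1) minus the mean of the 3 DMSO libraries, with grey lines joining a gene and black bars marking the median. In each complex the median of GSK replicate 1 is the lowest of the 6 libraries, at -0.31 for complex I and -0.49 for complex V.

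Complex I, the NADH dehydrogenase, took up 37 of the tested genes, and 1 of them rose (2.70%, against 17.0% of all tested genes). The gene was Ndufa6 (ENSMUSG00000022450, chr15:82350140-82354322 on GRCm38), an accessory subunit of the LYR-motif family. Its level was 799, 991 and 1078 normalised reads in GSK libraries, against 576, 623 and 716 in DMSO libraries. All GSK libraries lay above all DMSO libraries, although the lowest GSK library was replicate 1. The means were 956 ± 143 normalised reads in GSK libraries and 638 ± 71.6 in DMSO libraries (SD, n = 3 each), a 1.49-fold difference (log2 fold change 0.58, SE 0.14, limma adjusted p = 0.00286), and the call held under every setting tried.

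The promoter of Ndufa6 is printed because it holds the binding motif of NRF1, a transcription factor known for its sites in respiratory chain genes, as the promoter of Cycs below does, while the 2 genes moved in opposite directions. It comes from RefSeq on GRCm38.p6 (chr15:82354242-82354541, minus strand) and runs from 250 bases before the transcript start to 50 bases after it, with the motif in capitals.
Ndufa6: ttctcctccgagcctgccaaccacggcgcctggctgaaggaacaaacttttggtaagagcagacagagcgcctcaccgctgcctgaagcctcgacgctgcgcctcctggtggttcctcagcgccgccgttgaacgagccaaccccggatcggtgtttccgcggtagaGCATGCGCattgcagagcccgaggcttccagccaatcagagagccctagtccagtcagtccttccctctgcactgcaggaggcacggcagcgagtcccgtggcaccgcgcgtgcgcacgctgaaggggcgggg

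None of the other 36 tested complex I genes passed, and none fell by limma. Without GSK replicate 1, 7 genes of complex I were higher (Ndufa6, Ndufa8, Ndufa9, Ndufb3, Ndufb9, Ndufb10 and Ndufb11) and 0 lower, against 20.4% higher and 21.4% lower of all tested genes. Without GSK replicate 3, 1 was higher (Ndufa6) and 2 were lower (Ndufb7 and Ndufa12), against 14.1% and 17.8%. At an unadjusted p below 0.05, 1 gene was lower (Ndufb7), against at least 19.1% of all tested genes, the share past the adjusted threshold. By edgeR 1 was lower and by DESeq2 0, against 19.9% and 18.1% of all tested genes. The 7 catalytic core subunits, among them the carriers of the flavin and the iron-sulphur clusters, had a median log2 fold change of -0.0032, and none passed by limma, edgeR or DESeq2 or had an unadjusted p below 0.05. Ndufs5, an accessory subunit with the lowest mean of the tested complex I genes, averaged 379 ± 74.3 normalised reads in GSK libraries and 417 ± 36.9 in DMSO libraries (log2 fold change -0.16, SE 0.15, limma adjusted p = 0.454).

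Next in order of p in complex I were Ndufb7, just outside the threshold, then Ndufa8 and Ndufa12, farther from it, all accessory subunits. Ndufb7 had 493, 707 and 724 normalised reads in GSK libraries, against 743, 779 and 955 in DMSO libraries, and its groups did not overlap (log2 fold change -0.38, SE 0.15, limma adjusted p = 0.0591). For Ndufa8 the level was 477, 702 and 772 normalised reads in GSK libraries, against 465, 528 and 546 in DMSO libraries, with GSK replicate 1 inside the DMSO range (log2 fold change 0.32, SE 0.16, limma adjusted p = 0.127). Without that library Ndufa8 was 0.52 higher on the log2 scale (limma adjusted p = 7.7e-04). Ndufa12 averaged 770.2 ± 189 normalised reads in GSK libraries and 927 ± 88.1 in DMSO libraries, with overlapping groups (log2 fold change -0.29, SE 0.16, limma adjusted p = 0.154). Over the whole complex the median log2 fold change was 0.0036, with 19 genes positive and 18 negative. Its sign turned with the library left out, from -0.10 without GSK replicate 3 to 0.14 without GSK replicate 1.

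Complex III, the cytochrome bc1 complex, had 2 genes that rose and 1 that fell among 9 tested. These are 22.2% and 11.1%, against 17.0% higher and 19.1% lower of all tested genes. Cyc1 (ENSMUSG00000022551, chr15:76343523-76346260) encodes cytochrome c1, the haem subunit that hands electrons to cytochrome c. It had 1385, 1569 and 1713 normalised reads in GSK libraries, against 1934, 2113 and 2007 in DMSO libraries, every GSK library below every DMSO library. The means were 1556 ± 164 normalised reads in GSK libraries and 2018 ± 89.7 in DMSO libraries (log2 fold change -0.38, SE 0.13, limma adjusted p = 0.0273). The Cyc1 call was lost with libraries centred on the members, without GSK replicate 2 and without each DMSO library in turn, where adjusted p reached 0.122.

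The risers of complex III were Uqcrh and Uqcrc2. Uqcrh (ENSMUSG00000063882, chr4:116066965-116075071) encodes the hinge protein, a small acidic subunit that sits beside cytochrome c1. Its level was 1277, 1831 and 2000.2 normalised reads in GSK libraries, against 1268, 1200.3 and 1275 in DMSO libraries. GSK replicate 1 lay just above the highest DMSO library, and the other two GSK libraries were well above it. Uqcrh averaged 1703 ± 378 normalised reads in GSK libraries and 1248 ± 41.3 in DMSO libraries (log2 fold change 0.42, SE 0.15, limma adjusted p = 0.0326), and the call was lost when any single library other than GSK replicate 1 was left out, with adjusted p up to 0.148. Uqcrc2 (ENSMUSG00000030884, chr7:120635176-120659524), core protein 2 of the complex, had 1412, 1749 and 1979 normalised reads in GSK libraries, against 1424, 1217 and 1296 in DMSO libraries, so its groups overlapped (log2 fold change 0.37, SE 0.14, limma adjusted p = 0.0419). The Uqcrc2 call was lost with equal library totals, with a gene length correction and without any single library other than GSK replicate 1, and 504 bases of its exons overlap Pdzd9 on the other strand, whose reads Smart-seq2 does not separate.

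The other 6 genes of complex III did not pass. Uqcrc1, core protein 1 and the member with the highest mean, had 2299.7, 2802 and 3241 normalised reads in GSK libraries, against 2837, 3054 and 2698 in DMSO libraries, with overlapping groups and a log2 fold change of -0.05 (SE 0.14). Uqcr11, a small subunit with the lowest mean, averaged 606 ± 111 normalised reads in GSK libraries and 682 ± 49.4 in DMSO libraries (log2 fold change -0.18, SE 0.14, limma adjusted p = 0.336). The median over the complex was -0.05.

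Cycs (ENSMUSG00000063694, chr6:50562563-50566538), the somatic cytochrome c, carries electrons from complex III to complex IV and, once released from mitochondria, takes part in apoptosis. It had 444, 562 and 672 normalised reads in GSK libraries, against 805, 787 and 821 in DMSO libraries. The GSK libraries were spread over a wide range but all lay below the DMSO libraries, which were close together. The means were 559 ± 114 normalised reads in GSK libraries and 804 ± 16.8 in DMSO libraries (SD, n = 3 each), 0.686 times the DMSO level (log2 fold change -0.54, SE 0.14, limma adjusted p = 0.00549), and the call held under every setting tried. Its RefSeq promoter (GRCm38.p6, chr6:50566520-50566819, minus strand) has the NRF1 motif and, upstream of it, a CREB motif, both in capitals.
Cycs: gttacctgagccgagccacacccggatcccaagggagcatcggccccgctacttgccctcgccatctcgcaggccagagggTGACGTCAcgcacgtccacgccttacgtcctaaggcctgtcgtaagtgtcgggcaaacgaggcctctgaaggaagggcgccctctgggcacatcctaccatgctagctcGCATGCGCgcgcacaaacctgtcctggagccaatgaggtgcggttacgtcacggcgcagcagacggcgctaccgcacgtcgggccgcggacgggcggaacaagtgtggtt

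**Figure D3:**
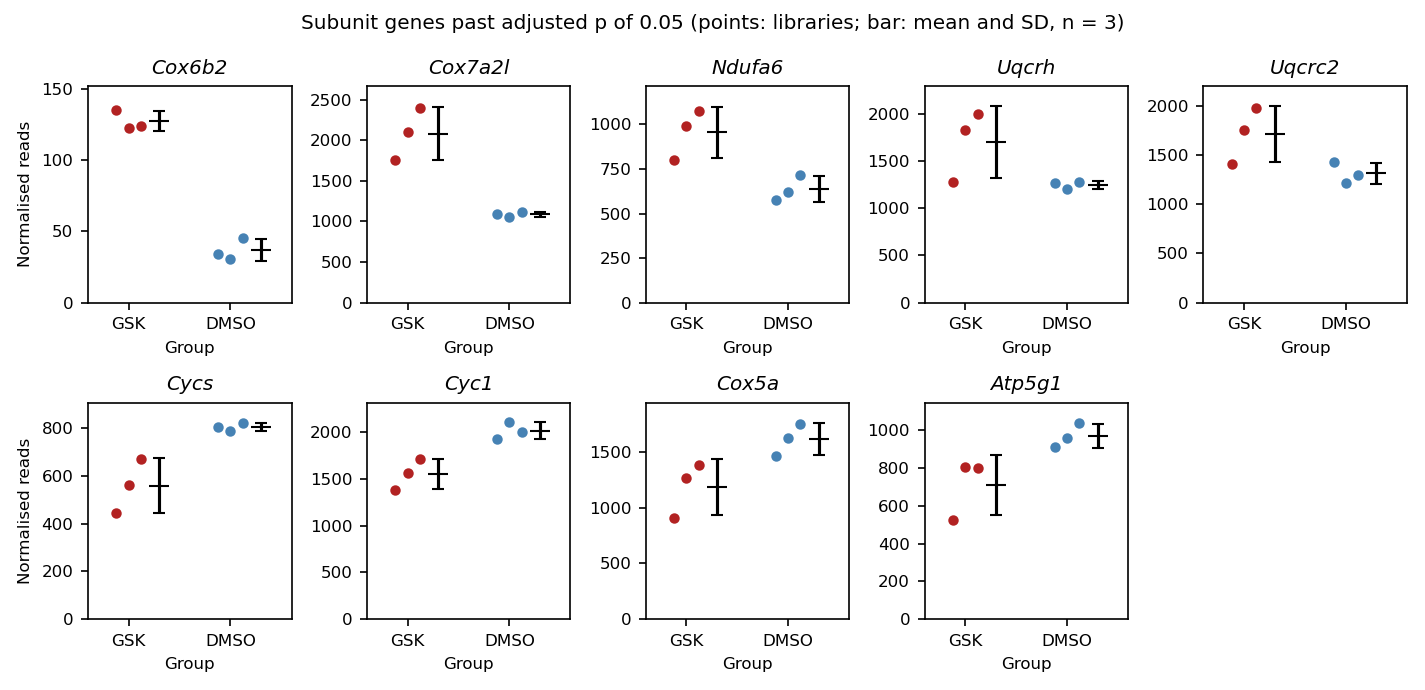
Normalised reads of the 9 genes past the threshold, with each library as a point and the mean and SD (n = 3) as a bar beside it, GSK left of DMSO, on axes that start at 0. Uqcrc2 is the panel in which a GSK library lies inside the DMSO range, and Cox6b2 shows the widest relative gap, with 122 to 135 normalised reads in GSK libraries and 30.9 to 45.5 in DMSO libraries.

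Complex IV, cytochrome c oxidase, held the largest changes among the members. Of 12 tested genes 2 rose, 1 fell and 9 did not pass. These are 16.7% higher and 8.33% lower, against 17.0% and 19.1% of all tested genes. Cox6b2 (ENSMUSG00000051811, chr7:4751792-4753094) encodes the form of subunit 6B that is known from testis. It had 135, 122 and 124 normalised reads in GSK libraries, against 34.0, 30.9 and 45.5 in DMSO libraries, every GSK library far above every DMSO library. The means were 127 ± 7.13 normalised reads in GSK libraries and 36.8 ± 7.70 in DMSO libraries, a 3.43-fold difference (log2 fold change 1.78, SE 0.21, limma adjusted p = 1.7e-06). Unlike most members, it was not lowest in GSK replicate 1.

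Cox7a2l (ENSMUSG00000024248, chr17:83501918-83517330) encodes a relative of subunit 7A that joins complexes III and IV in respiratory supercomplexes and is also called SCAF1. Its level was 1750.1, 2104 and 2391 normalised reads in GSK libraries, against 1089.9, 1059 and 1112 in DMSO libraries. The DMSO libraries were nearly equal and every GSK library was well above them. The means were 2082 ± 321 normalised reads in GSK libraries and 1087 ± 27.0 in DMSO libraries, a 1.90-fold difference (log2 fold change 0.93, SE 0.13, limma adjusted p = 2.0e-05). Both calls held under every setting in which the genes were tested. The promoters of these genes are shown because theirs were the largest changes. Neither holds a match to the 6 motifs searched, so they are in lower case throughout (RefSeq, GRCm38.p6, chr7:4753045-4753344, minus strand, and chr17:83514284-83514583, minus strand). The RefSeq start of Cox7a2l used here lies inside the gene as GENCODE gives it.
Cox6b2: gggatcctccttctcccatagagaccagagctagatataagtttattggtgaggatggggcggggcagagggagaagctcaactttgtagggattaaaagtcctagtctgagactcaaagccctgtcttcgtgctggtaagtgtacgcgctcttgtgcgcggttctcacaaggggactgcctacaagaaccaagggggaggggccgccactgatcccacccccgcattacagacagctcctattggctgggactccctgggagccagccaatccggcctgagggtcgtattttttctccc
Cox7a2l: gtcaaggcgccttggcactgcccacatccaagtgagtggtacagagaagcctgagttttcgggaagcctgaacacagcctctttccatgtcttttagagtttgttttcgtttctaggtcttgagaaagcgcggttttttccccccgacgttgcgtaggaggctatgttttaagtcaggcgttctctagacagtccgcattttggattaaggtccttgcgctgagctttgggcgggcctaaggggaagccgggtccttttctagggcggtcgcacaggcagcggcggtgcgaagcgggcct

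Cox5a (ENSMUSG00000000088, chr9:57521274-57532426), a matrix-side subunit of complex IV, fell. It had 908, 1262 and 1384 normalised reads in GSK libraries, against 1463, 1626 and 1749 in DMSO libraries, with no overlap between groups. The means were 1184 ± 247 normalised reads in GSK libraries and 1612 ± 144 in DMSO libraries (log2 fold change -0.46, SE 0.15, limma adjusted p = 0.0196). Without DMSO replicate 2 or DMSO replicate 3 its adjusted p rose above the threshold, to at most 0.0886, and 145 bases of its exons overlap Gm26631 on the other strand. Among the remaining tested genes of complex IV, log2 fold changes ran from -0.28 for Cox8a (adjusted p = 0.171) to 0.15 for Cox4i1. Cox4i1 was higher without GSK replicate 1 (log2 fold change 0.36, limma adjusted p = 0.00536), and Cox8a was lower without GSK replicate 3 (log2 fold change -0.41, limma adjusted p = 0.0352).

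Complex V, the ATP synthase, had mostly negative fold changes. Its median log2 fold change was -0.20, with 15 of 17 genes negative, and it stayed negative under every setting, from -0.31 without GSK replicate 3 to -0.07 without GSK replicate 1. Of the 17 genes 1 fell and none rose, which is 5.88% lower, against 19.1% lower of all tested genes. No gene was higher at an unadjusted p below 0.05 or by edgeR or DESeq2. At that unadjusted p 5 were lower, by edgeR 4 and by DESeq2 3. At least 19.1% of all tested genes were lower at that unadjusted p, since genes past the adjusted threshold also pass it. Whether these counts differ from the background was not tested. Of all tested genes edgeR called 19.9% lower and DESeq2 18.1%. GSK replicate 1 was the lowest of all 6 libraries for all 17 genes, against 22.6% of all tested genes.

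The gene that fell was Atp5g1 (ENSMUSG00000006057, chr11:96068852-96075670), 1 of 3 genes that encode the c subunit of the proton-driven rotor ring. It had 526, 807 and 800.1 normalised reads in GSK libraries, against 910.3, 959 and 1036 in DMSO libraries, with all GSK libraries below all DMSO libraries. The means were 711 ± 160.4 normalised reads in GSK libraries and 968 ± 63.5 in DMSO libraries (log2 fold change -0.47, SE 0.15, limma adjusted p = 0.02). Its adjusted p was at most 0.0818 without DMSO replicate 2 or DMSO replicate 3, where the call was lost. The transcript has 1 near-identical copy elsewhere in the annotation, with which the count may be shared. Its RefSeq promoter has an E-box, and no other motif of the 6 searched.

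The 4 genes of complex V next in order of p were Atp5e, Atp5k, Atp5o and Atp5h. Atp5e, the epsilon subunit of the central stalk, had 577, 933 and 922 normalised reads in GSK libraries, against 934, 1071 and 1242 in DMSO libraries, the groups not overlapping by a narrow margin (log2 fold change -0.44, SE 0.17, limma adjusted p = 0.051). Atp5k, subunit e of the membrane part where synthases pair, had 339, 515 and 535 normalised reads in GSK libraries, against 499, 633 and 743 in DMSO libraries, with overlap (log2 fold change -0.44, SE 0.18, limma adjusted p = 0.0606). Atp5o, which joins the peripheral stalk to the catalytic head and confers oligomycin sensitivity, averaged 1428 ± 208 normalised reads in GSK libraries and 1791 ± 173 in DMSO libraries without overlap (log2 fold change -0.33, SE 0.14, limma adjusted p = 0.0661). Atp5h, subunit d of the peripheral stalk, averaged 1766 ± 342 normalised reads in GSK libraries and 2159 ± 133 in DMSO libraries without overlap (log2 fold change -0.31, SE 0.15, limma adjusted p = 0.109). All 4 passed without GSK replicate 3 and none of them without GSK replicate 1.

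Atp5b, the catalytic beta subunit, had the highest normalised count of all members, not divided by length. Its level was 7069.9, 9014 and 9796 normalised reads in GSK libraries, against 9839, 10330.3 and 9604 in DMSO libraries, with overlap between groups (log2 fold change -0.21, SE 0.15, limma adjusted p = 0.295). By part of the enzyme, the median log2 fold change was -0.20 for the 5 genes of the catalytic head and central stalk, -0.20 for the 3 c-ring genes, -0.25 for 4 peripheral stalk genes and -0.22 for 5 other membrane genes. Atpif1, the inhibitor protein of the synthase and no subunit, averaged 1995 ± 416 normalised reads in GSK libraries and 1518 ± 159.5 in DMSO libraries and did not pass by limma (log2 fold change 0.38, SE 0.15, limma adjusted p = 0.0594). It was higher at an unadjusted p below 0.05, by edgeR, by DESeq2 and by limma without GSK replicate 1.

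Divided by transcript length, Cox4i1 was the most abundant member at 5793 normalised reads per kb over all libraries, followed in complex V by Atp5b at 4841. In complex III the level per kb ran from 798 for Uqcrc2 to 3206 for Uqcrq. Among the tested genes of complex I it ran from 313 for Ndufv3 to 2972 for Ndufa4, a protein first placed in complex I by name and later assigned to complex IV. Cox6b2 was far lower, at 176 per kb, as was Cycs at 218 per kb.

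Several complex IV subunits exist as tissue forms, and the widely expressed form was the one measured well here. Per kb, Cox4i1 stood at 5793 normalised reads and Cox4i2 at 7.36. Cox4i1, Cox6a1, Cox6b1, Cox7a2, Cox7b, Cox8a and Ndufa4 averaged from 1302 to 4316 normalised reads, and none of these 7 passed by limma, edgeR or DESeq2 or had an unadjusted p below 0.05. The heart and muscle forms Cox6a2, Cox7a1 and Cox8b, the lung and hypoxia form Cox4i2, the testis form Cox7b2 and Ndufa4l2 each stayed under the mean of 10 needed for the test. Cox4i2 had 2.28, 1.84 and 6.37 normalised reads in GSK libraries, against 6.37, 6.87 and 8.36 in DMSO libraries and Ndufa4l2 had 5.69, 7.35 and 15.9 normalised reads in GSK libraries, against 4.25, 0 and 5.58 in DMSO libraries. Cox7a1 had 9.10, 3.68 and 8.49 normalised reads in GSK libraries, against 3.19, 1.72 and 4.65 in DMSO libraries. Cox6a2, Cox7b2 and Cox8b had between 0 and 6 reads in each library. These levels rest on at most 15 reads per library and no difference was read from them. Cox8c and Ndufb11b had 0 reads in every library, which at 3 reads allows a level of up to 2.58 to 3.41 normalised reads, counting error only.

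**Figure D4:**
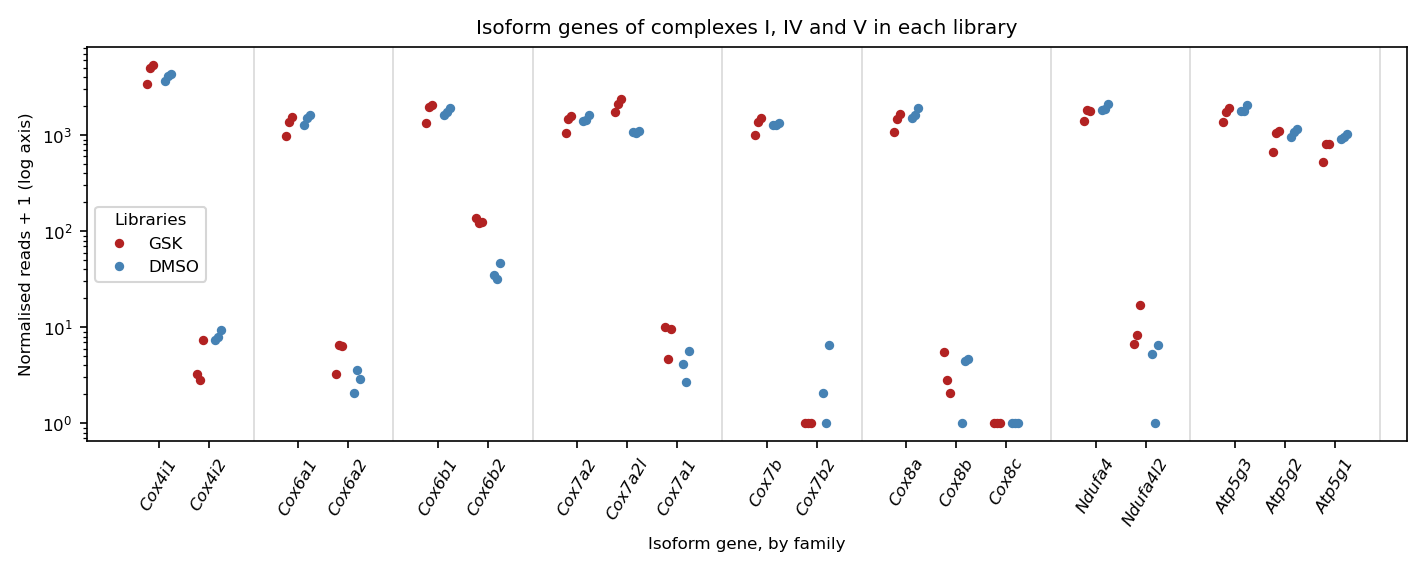
Normalised reads plus 1, on a log axis, of the isoform genes grouped by family, with 1 point per library, GSK points left of DMSO points. Cox6b2 and Cox7a2l are the tested genes in which every GSK library lies clear above the DMSO libraries, and the tissue forms at the bottom reach at most 15.9 normalised reads.

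Within the 6B pair the testis form stood higher against the main form in every GSK library than in any DMSO library. Cox6b2 amounted to 10.2%, 6.19% and 5.97% of the Cox6b1 count in GSK libraries, against 2.10%, 1.80% and 2.36% in DMSO libraries. The log2 ratio differed by 1.77 between GSK and DMSO libraries. Cox6b1 itself had 1329, 1973 and 2079.7 normalised reads in GSK libraries, against 1621, 1723 and 1931 in DMSO libraries, and its groups overlapped. The exact permutation test (two-sided) of this ratio gave p = 0.1, the smallest that 3 against 3 allows, and 0.125 when adjusted over the 5 ratios tested.

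The same exact p and adjusted value were reached by 3 other ratios. Cox7a2l stood at 166%, 144% and 153% of the Cox7a2 count in GSK libraries, against 76.7%, 73.7% and 68.3% in DMSO libraries, without overlap. Atp5g1 stood at 77.9%, 76.0% and 72.6% of the Atp5g2 count in GSK libraries, against 94.2%, 88.3% and 90.4% in DMSO libraries. Against Atp5g3 it was 38.4%, 45.9% and 41.8% of the Atp5g3 count in GSK libraries, against 51.1%, 53.6% and 50.5% in DMSO libraries. Atp5g1 has 1 near-identical copy elsewhere in the annotation and Atp5g2 has 2, with which their counts may be shared. The 3 c-subunit genes encode the same mature protein behind different targeting peptides, and the proportion of Atp5g2 to Atp5g3 overlapped between groups. Atp5g2 was 49.3%, 60.4% and 57.5% of the Atp5g3 count in GSK libraries, against 54.3%, 60.7% and 55.9% in DMSO libraries (two-sided exact permutation p = 0.8). Atp5g2 averaged 946 ± 236 normalised reads in GSK libraries and 1066 ± 91.6 in DMSO libraries and Atp5g3 1681 ± 280.3 normalised reads in GSK libraries and 1874 ± 153 in DMSO libraries, and neither passed (limma adjusted p = 0.349 and 0.379).

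Promoters were matched for 67 of the 84 members in RefSeq (72 promoters of 300 bases, GRCm38.p6). The NRF1 motif GCGCATGC was in 13.9% of member promoters, against 2.71% of all 32851 promoters in the table. The ETS and GABP motif CCGGAAG was in 20.8%, against 8.86%, and the YY1 motif AAGATGGCG in 9.72%, against 1.40%. For the CREB motif TGACGTCA the shares were 6.94% and 1.79%, for the E-box CACGTG 9.72% and 7.15%, and for the ATF4 motif TGATGNAA 0% and 3.97%. Both strands were searched, N stands for any base, and none of the motifs contains another. Among the members past the threshold, NRF1 matched in Ndufa6, which rose, and Cycs, which fell, and the ETS motif in Uqcrh, which rose. Cox5a, Cox6b2 and Cox7a2l had no match, and Cyc1 and Uqcrc2 were not matched to a promoter. A match of letters is a description of the window and not evidence of binding.

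Summed over their members, the complexes overlapped between the groups. Complex I summed to 32164 ± 5629 normalised reads in GSK libraries and 31968 ± 2091 in DMSO libraries (SD, n = 3; two-sided exact permutation p = 1). Complex III summed to 12632 ± 2179 normalised reads in GSK libraries and 12482 ± 145 in DMSO libraries and complex IV to 20028 ± 4087 normalised reads in GSK libraries and 19640.2 ± 1599.8 in DMSO libraries (exact permutation p = 1 and 0.9). Complex V summed to 36396 ± 5876 normalised reads in GSK libraries and 40884 ± 1243 in DMSO libraries (exact permutation p = 0.2). All members together summed to 101779 ± 17876 normalised reads in GSK libraries and 105778 ± 4898 in DMSO libraries. In each of these sums GSK replicate 1 was the lowest of the 6 libraries, and the GSK spread exceeded the difference between groups. Adjusted over the 6 sums, cytochrome c included, no p was below 0.6, and abundant genes dominate a sum.

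Relative to the nuclear genes, the partner subunits encoded by mitochondrial DNA had more reads in every GSK library than in any DMSO library. Of 13 mitochondrially encoded subunits 9 rose and none fell, by limma, edgeR and DESeq2 alike, and none was lower at an unadjusted p below 0.05. Of all tested genes 17.0% rose by limma, 16.8% by edgeR and 15.9% by DESeq2. mt-Nd4, a proton-pumping subunit of complex I, averaged 4814 ± 627 normalised reads in GSK libraries and 2369 ± 514 in DMSO libraries (log2 fold change 1.04, SE 0.16, limma adjusted p = 3.3e-05). mt-Co1, the catalytic subunit of complex IV, averaged 23662 ± 1395 normalised reads in GSK libraries and 12398 ± 2680.4 in DMSO libraries (log2 fold change 0.95, SE 0.17, limma adjusted p = 1.7e-04). For complex I the log2 ratio of mitochondrially to nuclear-encoded reads was 0.67, 0.42 and 0.59 in GSK libraries, against 0.04, -0.34 and -0.46 in DMSO libraries. For complex IV it was 0.65, 0.19 and 0.21 in GSK libraries, against -0.15, -0.65 and -0.89 in DMSO libraries. The ratio for complex III was 0.25, 0.01 and 0.21 in GSK libraries, against -0.30, -0.74 and -0.66 in DMSO libraries. The 4 ratios, complex V included, differed by 0.72 to 0.91 on the log2 scale (two-sided exact permutation p = 0.1 in each, the smallest possible). GSK replicate 1, lowest in the nuclear genes, had the highest ratio in complexes I, III and IV, and without it the 4 differences were 0.67 to 0.81. The ratios are compared between libraries and not read as proportions of subunits.

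**Figure D5:**
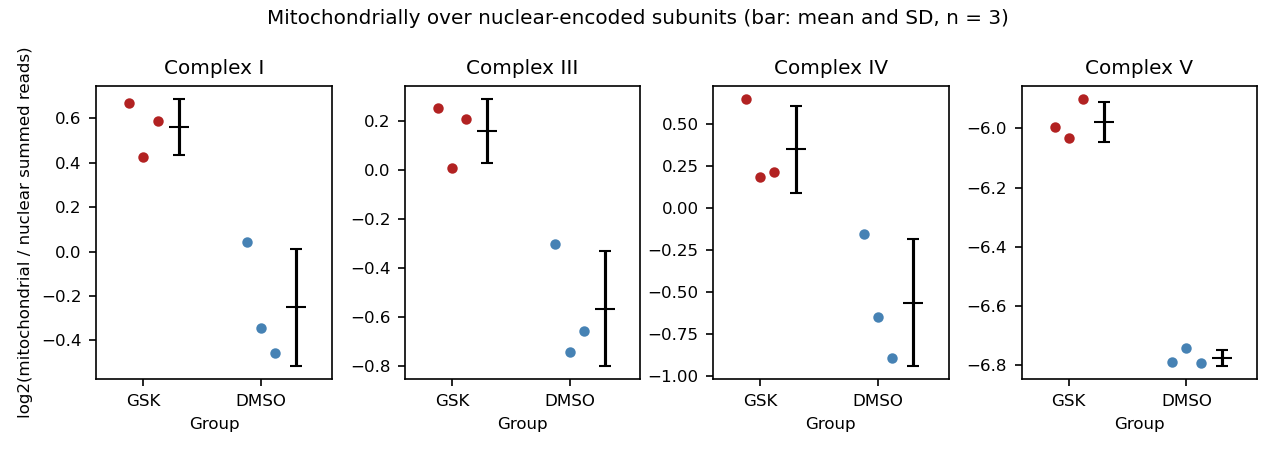
For each complex, the log2 ratio of summed mitochondrially encoded to summed nuclear-encoded normalised reads, with 1 point per library and the mean and SD (n = 3) as a bar, GSK left of DMSO; the vertical axes differ between panels. All GSK points lie above all DMSO points in each panel.

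Complex II, which is wholly nuclear-encoded and shared with the citric acid cycle, was not called. None of its 4 genes passed in either direction by limma, edgeR or DESeq2, and none had an unadjusted p below 0.05. Without GSK replicate 1, 1 of the 4 was higher, against 20.4% of all tested genes. Its catalytic subunit Sdha averaged 2098 ± 197 normalised reads in GSK libraries and 2093 ± 65.2 in DMSO libraries (log2 fold change -0.00075, SE 0.13, limma adjusted p = 1). Sdhc, a membrane anchor, averaged 559.8 ± 146 normalised reads in GSK libraries and 439 ± 34.0 in DMSO libraries (log2 fold change 0.32, SE 0.17, limma adjusted p = 0.148).

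Most assembly factors, which build the complexes without staying in them, did not pass. Of 18 tested for complex I, 2 rose, 1 fell and 15 did not pass, shares below the 17.0% higher and 19.1% lower of all tested genes. Ndufaf7, a methyltransferase needed for complex I assembly, averaged 286 ± 31.0 normalised reads in GSK libraries and 189 ± 12.5 in DMSO libraries (log2 fold change 0.59, SE 0.15, limma adjusted p = 0.00382), and Tmem126b, an early membrane-arm factor, averaged 292 ± 23.7 normalised reads in GSK libraries and 211 ± 29.4 in DMSO libraries (log2 fold change 0.47, SE 0.15, limma adjusted p = 0.0186). Ndufaf6 fell, with 81.0 ± 18.4 normalised reads in GSK libraries and 127 ± 20.4 in DMSO libraries (log2 fold change -0.65, SE 0.20, limma adjusted p = 0.0171). Without GSK replicate 1 the counts were 5 higher and 0 lower, against 20.4% and 21.4% of all tested genes. The share higher was then above that background. Without GSK replicate 3 the counts were 1 higher and 3 lower, against 14.1% and 17.8%.

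Of 6 factors for complex III, 1 rose and 1 fell, shares close to the 17.0% higher and 19.1% lower of all tested genes. Uqcc3 had 219.6, 312 and 322 normalised reads in GSK libraries, against 149, 183 and 164 in DMSO libraries (log2 fold change 0.76, SE 0.17, limma adjusted p = 0.0013). Uqcc2 had 236, 297 and 382 normalised reads in GSK libraries, against 482, 471 and 587 in DMSO libraries (log2 fold change -0.77, SE 0.16, limma adjusted p = 9.5e-04). Both act early, on mitochondrially encoded cytochrome b, and they moved in opposite directions, with no overlap in either.

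Among 22 factors for complex IV, 2 rose, 3 fell and 17 did not pass, also below those shares of all tested genes. Surf1, needed to build the catalytic core, averaged 363 ± 94.1 normalised reads in GSK libraries and 222 ± 32.5 in DMSO libraries (log2 fold change 0.68, SE 0.18, limma adjusted p = 0.00644), and Cox17, a copper chaperone, averaged 388 ± 76.5 normalised reads in GSK libraries and 285 ± 20.1 in DMSO libraries (log2 fold change 0.43, SE 0.16, limma adjusted p = 0.0373). Fastkd5, a mitochondrial RNA-processing protein, fell, with 15.9, 23.0 and 25.5 normalised reads in GSK libraries, against 85.0, 49.0 and 61.3 in DMSO libraries (log2 fold change -1.55, SE 0.28, limma adjusted p = 2.5e-04). The others that fell were Cox18 (log2 fold change -0.51, adjusted p = 0.0271) and Sco2 (log2 fold change -0.41), whose adjusted p lay just under 0.05. Without GSK replicate 1 there were 7 higher and 2 lower, against 20.4% and 21.4% of all tested genes. The share higher was then above that background and not below it. Without GSK replicate 3 there were 1 higher and 2 lower, against 14.1% and 17.8%. None of the 4 tested complex V factors passed by limma, edgeR or DESeq2, and none had an unadjusted p below 0.05. The 2 with the smallest p were Atpaf1 (log2 fold change 0.17, SE 0.16) and Fmc1 (log2 fold change -0.16, SE 0.19).

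Several transcription factors and coactivators known to drive these subunit genes fell. Of 8 tested 4 passed as lower, against 19.1% of all tested genes, and none as higher. The counts were the same without GSK replicate 1 (21.4% of all tested genes lower) and without GSK replicate 3 (17.8%). None was higher at an unadjusted p below 0.05 or by edgeR or DESeq2. Pprc1, a coactivator of the PGC-1 family, had 279, 208 and 219.6 normalised reads in GSK libraries, against 653, 838 and 844 in DMSO libraries (log2 fold change -1.72, SE 0.15, limma adjusted p = 2.5e-08). Nrf1 had 533, 470.4 and 457 normalised reads in GSK libraries, against 751, 778 and 727 in DMSO libraries (log2 fold change -0.63, SE 0.13, limma adjusted p = 5.9e-04). Ppargc1a, which encodes PGC-1 alpha, averaged 19.4 ± 2.87 normalised reads in GSK libraries and 44.4 ± 6.23 in DMSO libraries (log2 fold change -1.15, SE 0.28, limma adjusted p = 0.00339). Gabpa, the DNA-binding partner in the ETS factor GABP, also fell (log2 fold change -0.51, adjusted p = 0.00366). Of its exons 123 bases overlap the member Atp5j on the other strand, whose reads Smart-seq2 does not separate. In each of these 4 genes all GSK libraries lay below all DMSO libraries.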

How the data were processed

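Bulk RNA was sequenced from 3 GSK and 3 DMSO libraries of sorted cells, amplified by Smart-seq2 per the labels' protocols. The deposited signal values are the authors' normalised read counts, 1 value per gene and library. The submitters' processing notes name STAR, DESeq, GRCm38 and mm10 with no role or version. How reads were counted, on which annotation and with which strand setting is not stated there. Smart-seq2 leaves strand unmarked, so reads of overlapping genes on opposite strands cannot be separated. Many members share exon bases with another gene, Atp5o among them.

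From 118098 table rows 1 per gene was kept, for 32285 genes. All nonzero values were whole multiples of 1 read within 0.01, so whole reads were recovered as an alternative input. Reads of close copies may be shared, since 13 members have near-identical copies elsewhere (at least 95% identity over at least 50% of the transcript, BLAST+ 2.17.0). Atp5g1, Atp5g2, Atp5h, Atp5k and Atp5o are among the 13. Lengths and coordinates came from GENCODE release M21 (GRCm38), matched for all 84 members.

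limma 3.58.1 (R 4.3.3; trended, robust prior) tested log2(value + 1) with group as the only term, on the 15073 genes whose mean over 6 libraries reached 10, with Benjamini-Hochberg adjustment at 0.05. Fold changes on this scale understate the change of low genes. The script was tested on simulated data. Sums and ratios used two-sided exact permutation tests (SciPy 1.17.1). Alternatives were other pseudocounts (0.5 and 10), filters, scalings and length correction, a replicate block, each library left out, and edgeR 4.0.16 and DESeq2 1.42.0 on recovered reads, where edgeR called 2529 genes higher and 3007 lower, against 2563 and 2883 by limma.

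Named members were those past the threshold, the 8 others with the smallest p, all isoform genes, and the highest and lowest mean per complex. For assembly factors, regulators and ubiquinone genes, every gene past the threshold was named, or otherwise the 2 with the smallest p. Genes named from the mitochondrially encoded, complex II and cell type marker lists followed no such rule. Genes named by level per kb and Atpif1 were chosen after their values were seen. A result for 1 member that the rule names is not reported here. The members and gene lists were chosen with earlier results of these data known.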

Additional observations from a re-analysis of the deposited data

How the results depend on the processing

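Cox6b2, Cox7a2l, Ndufa6 and Cycs kept direction and call under every alternative in which they were tested. Over 29 named members and their alternatives, 456 of 521 values kept their side of the threshold, 43 passed it anew and 22 lost it, and no called value changed sign. The members higher numbered 3 to 12 when 1 library was left out, and 4 or 5 otherwise. The members lower numbered 1 to 12 when 1 library was left out, 10 with equal library totals, 9 with equal totals without the 3 genes overlapping ribosomal RNA, 8 with edgeR and 8 with a gene length correction. Shifting each library to the same median of the members, an alternative added after the data were examined, left 3310 genes called over all genes, 5 members higher and 3 lower. The causes were not tested.

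Over all tested genes the replicate numbers did not pair the libraries (correlations of same-numbered deviations 0.0131, -0.0236 and 0.0529). The members' medians, set against the DMSO mean, rose with the replicate number in both groups. They were -0.39, 0.03 and 0.13 in GSK libraries and -0.09, -0.03 and 0.11 in DMSO libraries. Pairing for the members alone was not tested. With the replicate block 7 members were lower, and 10 with the block and the length correction. As a log2 difference the sum of complex I was -0.0700 with equal totals and -0.0095 without the ribosomal RNA genes, and from -0.0950 to 0.144 with 1 library left out. For complex III the values were -0.0612, -0.00065 and from -0.0927 to 0.148, and for complex IV the sum was -0.0522 with equal totals and from -0.0938 to 0.185. The sum of all members ran from -0.161 to 0.0799, and the ratio of Atp5g2 to Atp5g3 from -0.0958 to 0.0511, with 1 library left out. At 3 against 3 the permutation tests cannot go below 0.1, and isoforms under the mean of 10 could not be tested.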

Other observations

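Ubiquinone, the lipid that carries electrons from complexes I and II to complex III, is made by a nuclear-encoded pathway, and most of its genes did not pass. Of 13 tested 2 rose, 2 fell and 9 did not pass, with shares close to the 17.0% and 19.1% of all tested genes. Pdss1, which makes the isoprenoid tail, had 105, 121 and 91.3 normalised reads in GSK libraries, against 198, 220.0 and 199 in DMSO libraries (log2 fold change -0.96, SE 0.17, limma adjusted p = 1.3e-04). Coq7, a hydroxylase late in the pathway, had 172, 219.6 and 282 normalised reads in GSK libraries, against 419, 392 and 414 in DMSO libraries (log2 fold change -0.89, SE 0.16, limma adjusted p = 2.5e-04). In both genes every GSK library lay below every DMSO library. Coq9, which presents lipid intermediates to Coq7, rose, with 471, 663 and 625 normalised reads in GSK libraries, against 348, 402 and 394 in DMSO libraries (log2 fold change 0.61, SE 0.15, limma adjusted p = 0.00267). Coq10a, a ubiquinone-binding protein, averaged 50.2 ± 5.24 normalised reads in GSK libraries and 30.4 ± 9.67 in DMSO libraries (log2 fold change 0.74, SE 0.27, limma adjusted p = 0.0378). The median of the list was 0.30. Without GSK replicate 1 there were 3 higher and 2 lower, against 20.4% and 21.4% of all tested genes. Without GSK replicate 3 there was 1 higher and 2 lower, against 14.1% and 17.8%.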
